A study of Danio rerio with 18 samples.

Results

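The genes described here set up or read the dorsoventral axis of the zebrafish embryo. They are chrd, gsc, szl, bmp2b, bmp4, vox, vent and ved, 8 genes chosen by symbol from the 32521 gene identifiers in the count files. Of these 8, 7 were matched to 1 identifier: chrd (ENSDARG00000006110), gsc (ENSDARG00000059073), szl (ENSDARG00000099637), bmp4 (ENSDARG00000019995), vox (ENSDARG00000099761), vent (ENSDARG00000100483) and ved (ENSDARG00000102389). The table of gene names gives the symbol bmp2 to 2 identifiers, ENSDARG00000041430 and ENSDARG00000013409, without saying which of them is bmp2b. Values are therefore given for both bmp2 identifiers and for neither under the name bmp2b.

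RNA was sequenced from whole embryos in 6 groups of 3 libraries, which combine 2 injections with 3 stages (the 128-cell stage and 5 or 24 hpf, where hpf is hours after fertilization). All 18 libraries came from embryos of ABTL Tg(ddx4:ddx4-EGFP) mothers and casper fathers, and the transgene, a fusion of EGFP to ddx4, a gene of the germ line, is transcribed in the mother only. Injected embryos received 0.7 ng of StCsm(EGFP), a bacterial type III CRISPR complex that cuts RNA, programmed against EGFP and carrying the D16A change that removes the DNase activity of Cas10. Mock embryos received the same 1 nL of diluted Tris storage buffer without complex. Each library is a pool of 25 embryos, and the replicate number stands for 1 of 3 independent injections, called batches below. The embryos of a batch were shared by both injections and came from several mating pairs, with mothers both homozygous and heterozygous for the transgene. RNA was selected by its poly(A) tail, so that levels of stored maternal transcripts depend on the tail as well as on the amount.

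In the zebrafish blastula, ventral cells secrete BMP ligands, which bind receptor kinases and activate Smad proteins, and the dorsal organizer secretes antagonists such as Chordin (chrd) that bind the ligands and keep them from the receptors. Sizzled (szl) is made ventrally in response to BMP and inhibits the proteases that cleave Chordin, so that it acts as a feedback brake on the pathway. The homeobox gene gsc encodes a repressor made in the organizer, while vox, vent and ved encode homeobox repressors that act outside the organizer and keep organizer genes off there. Most of these genes are transcribed only once the embryo's own genome becomes active, which happens between the 128-cell stage and 5 hpf, whereas the onset of gastrulation follows shortly after 5 hpf.

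The depth was 11763787 to 21092691 assigned reads per library. Levels are CPM, the reads of a gene as a share of all assigned reads of its library, with the library totals scaled by TMM over the 18 libraries. The stage labels were checked with marker lists. The summed CPM of 11 oocyte transcripts was 3291 to 4643 at the 128-cell stage, 484 to 1059 at 5 hpf and 5.89 to 18.6 at 24 hpf, while 10 muscle markers summed to 2.997 to 29.2, 4.57 to 24.7 and 9914 to 15416. The targeted transcript, EGFP, had 3261, 6675 and 3909 reads in mock batches 1, 2 and 3 at the 128-cell stage and 3960, 6993 and 2117 after StCsm(EGFP) injection. The corresponding EGFP levels were 165, 285 and 162 CPM and 135, 238 and 95.8 CPM, lower after injection in 3 of 3 batches. At 5 hpf, EGFP was at 110, 145 and 111 CPM in mock embryos and at 62.3, 111 and 79.4 CPM after injection, again lower in 3 of 3 batches. At 24 hpf, EGFP had 12 to 36 reads per library.

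The dorsoventral genes were low at the 128-cell stage, where none exceeded 4.26 CPM in any library, high at 5 hpf and low again at 24 hpf. Of the 7 genes, bmp4 kept the largest share of its 5 hpf level. This pattern held for both injections. In pools of whole embryos, fewer cells that express a gene and less RNA per cell cannot be told apart.

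**Figure D1:**
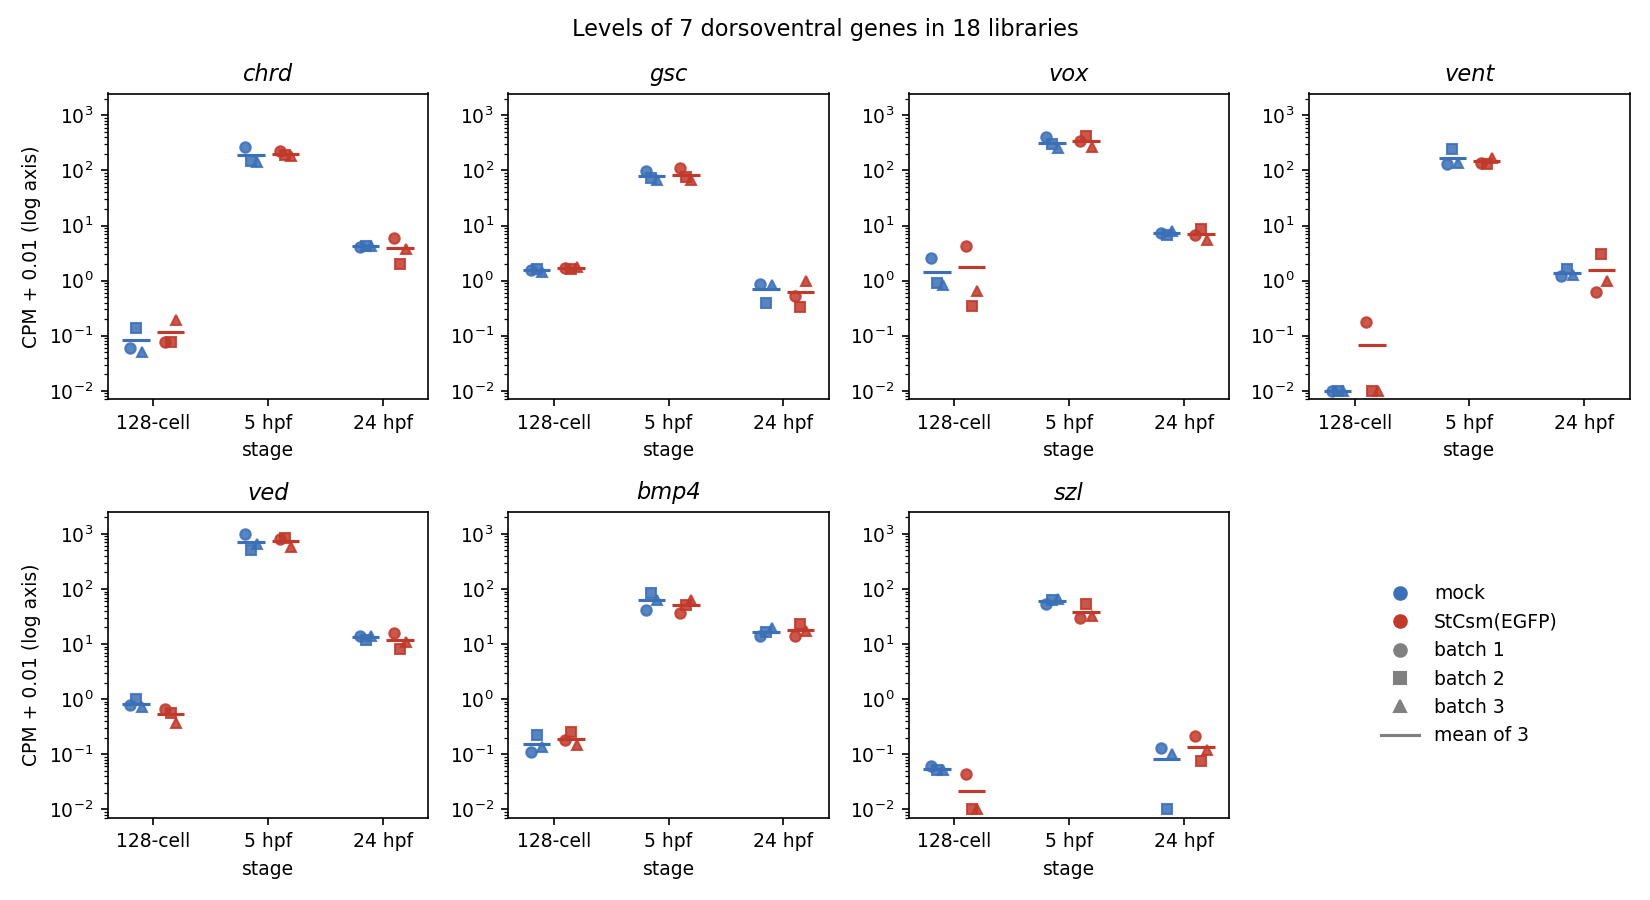
CPM plus 0.01 on a log axis for the 7 matched genes by stage. Points are libraries (blue mock, red StCsm(EGFP)), symbols mark batches 1 to 3, and bars are means of 3. Every gene was highest at 5 hpf, and at 24 hpf bmp4 lay between 13.7 and 23.0 CPM.

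The first role is that of the ligands. The gene bmp4 encodes a BMP ligand that is made ventrally and maintains the signal during gastrulation. It had 2, 5 and 3 reads in mock batches 1 to 3 at the 128-cell stage and 5, 7 and 3 after StCsm(EGFP) injection. At 5 hpf, bmp4 was at 42.2, 83.7 and 62.2 CPM in mock embryos and at 37.2, 50.7 and 63.7 CPM after injection. Batch 1 was the lowest for both injections. At 24 hpf, the levels were 13.9, 16.5 and 19.6 CPM in mock and 13.7, 23.0 and 17.2 CPM in injected embryos, and no 24 hpf library reached any 5 hpf library. The 24 hpf mean was 26.6% of the 5 hpf mean in mock embryos and 35.6% in injected embryos. In pooled reads this is a 3.69-fold excess at 5 hpf in mock (95% interval 3.35 to 4.07) and a 2.74-fold excess in injected embryos (2.51 to 3.00), where the intervals cover counting error only.

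The bmp2 identifiers behaved unlike each other. ENSDARG00000041430 had at most 3 reads in any 128-cell library, stood at 117, 79.1 and 79.7 CPM in mock and 99.0, 101 and 69.5 CPM in injected embryos at 5 hpf, and fell to 7.63 to 11.6 CPM at 24 hpf. Its 24 hpf mean was 10.9% of the 5 hpf mean in mock embryos and 10.2% in injected embryos. ENSDARG00000013409 was nearly silent through 5 hpf, with 0 to 7 reads per library, and reached 2.07 to 3.39 CPM at 24 hpf. For 24 hpf against 5 hpf in mock embryos, edgeR gave ENSDARG00000041430 a log2 fold change of -3.19 ± 0.24 (SE, Benjamini-Hochberg adjusted p = 1.73e-07) and ENSDARG00000013409 one of 3.80 ± 0.49. The latter passed the filter on low counts through its 24 hpf libraries alone, so its call was set by the filter. In mock embryos it had 8 reads in the 5 hpf group and 92 in the 24 hpf group. So 1 of the 2 bmp2 identifiers shared the 5 hpf peak, and the few reads of the other were mostly from 24 hpf.

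The next role is that of the secreted modulators. The antagonist gene chrd had 1 to 4 reads in every 128-cell library. At 5 hpf it was at 266, 150 and 145 CPM in mock batches 1 to 3 and at 224, 194 and 184 CPM after StCsm(EGFP) injection. Both batch 1 libraries were above the other 4. At 24 hpf, chrd had fallen to 4.13, 4.25 and 4.31 CPM in mock and to 5.83, 2.03 and 3.70 CPM in injected embryos, which is 2.26% and 1.92% of the respective 5 hpf means. Pooled reads gave a 43.9-fold excess at 5 hpf over 24 hpf in mock embryos (95% interval 36.8 to 52.9) and a 56.1-fold excess in injected embryos (46.9 to 67.7).

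Of the 7 genes, the feedback inhibitor gene szl kept the smallest share of its 5 hpf level at 24 hpf (0.116% in mock and 0.336% in injected embryos). It had 0 or 1 read in every 128-cell library and 0 to 2 reads in every 24 hpf library, against 349 to 874 reads in each 5 hpf library. At 5 hpf it stood at 54.2, 63.9 and 65.5 CPM in mock embryos and at 29.6, 52.3 and 32.1 CPM in injected embryos. These groups did not overlap, but how many of all genes show the same was not counted. With 1 to 4 reads per group outside 5 hpf, the folds for szl rest on counting alone: pooled mock reads gave 1377 for 5 hpf over the 128-cell stage (95% interval 470.4 to 6680) and 904 for 5 hpf over 24 hpf (250.0 to 7472). For injected embryos the same folds were 3043 (545 to 120271) and 321 (125 to 1179).

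The organizer gene gsc was already found in every library of the earliest stage. At the 128-cell stage it had 31, 38 and 34 reads in mock and 50, 47 and 39 reads in injected embryos, that is 1.41 to 1.77 CPM in all 6 libraries. At 5 hpf, gsc was at 99.5, 73.3 and 66.9 CPM in mock and at 110, 76.5 and 67.2 CPM in injected embryos, with batch 1 the highest for both. At 24 hpf, it had only 4 to 9 reads per library, 0.327 to 0.981 CPM. It was thus lower at 24 hpf than at the 128-cell stage, with no overlap, and edgeR gave -1.14 ± 0.34 in mock (log2, SE, Benjamini-Hochberg adjusted p = 0.00727) and -1.64 ± 0.37 in injected embryos (adjusted p = 0.00132). Of all tested genes, 39.2% were called lower in this comparison in mock and 38.8% in injected embryos. Over the alternatives tried, the gsc value ranged from -2.17 to -0.80 in mock and from -2.46 to -1.29 in injected embryos.

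The ventral repressor genes followed the same course as chrd. Reads of vox and ved were found in every library of the 128-cell stage. For vox these were 51, 21 and 20 reads in mock and 125, 10 and 14 in injected embryos. The vox level rose to 408, 300 and 255 CPM in mock and 347, 414 and 265 CPM in injected embryos at 5 hpf and was at 5.45 to 8.57 CPM at 24 hpf. The 24 hpf mean was 2.28% of the 5 hpf mean in mock and 2.03% in injected embryos.

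The gene vent, the neighbour of vox in the RefSeq gene order of the assembly GRCz12tu, had 0 reads in 5 of the 6 libraries of the 128-cell stage and 5 reads in injected batch 1. At 5 hpf, vent was at 131, 245 and 135 CPM in mock and at 139, 133 and 172 CPM in injected embryos, so that mock batch 2 stood apart from the other 5 libraries. With 0 reads in the mock 128-cell group, vent was at least 3776-fold higher at 5 hpf than a floor of 3 reads over that group. At 24 hpf, it was at 0.625 to 3.01 CPM, with 46 reads in injected batch 2 and 6 to 17 in the others.

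Transcripts of ved were found at 0.362 to 0.982 CPM at the 128-cell stage (8 to 23 reads). At 5 hpf, ved stood at 1011, 503 and 649 CPM in mock and at 807, 851 and 590 CPM in injected embryos. Mock batches 1 and 2 were the highest and the lowest of the 6 libraries, so the range within mock embryos enclosed the injected libraries. At 24 hpf, ved was at 8.25 to 16.1 CPM, 1.83% of the 5 hpf mean in mock and 1.56% in injected embryos.

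Stages were compared within each injection with edgeR's quasi-likelihood test on 9 libraries, and genes with a Benjamini-Hochberg adjusted p under 0.1 were called. The contrasts of 1 injection share libraries. TMM centres the bulk of genes near no change. Folds between stages, and the shares and medians over all genes, are therefore relative to that centring. From the 128-cell stage to 5 hpf in mock embryos, where 36.4% of the 19100 tested genes were called higher and 34.8% lower, the 7 matched genes were called higher. The edgeR log2 fold change was 11.15 ± 0.40 (SE) for chrd, 10.18 ± 0.34 for szl, 9.78 ± 0.33 for ved, 8.65 ± 0.39 for bmp4, 7.84 ± 0.39 for vox and 5.70 ± 0.25 for gsc. That of vent rests on a group with 0 reads and is replaced by the bound above. The filter on low counts was passed by szl through its 5 hpf libraries alone, and chrd, bmp4 and vent had at most 7 reads in any 128-cell library. These genes could hardly have been tested without being higher at a later stage, and their number is not read further. In injected embryos, where 35.6% of 19300 tested genes were called higher, the same 7 genes were called higher, with 5.57 ± 0.30 for gsc, 7.51 ± 0.69 for vox, 7.98 ± 0.39 for bmp4 and 10.38 ± 0.36 for ved. Injected batch 1 held 125 of the 149 vox reads at the 128-cell stage, and the vox value was 9.41 without that batch and 6.85 and 7.21 without batch 2 or 3.

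From 5 hpf to 24 hpf in mock embryos, where 39.6% of the tested genes were called lower and 40.7% higher, the 7 matched genes were called lower. The log2 fold change was -1.90 ± 0.25 for bmp4 (edgeR, Benjamini-Hochberg adjusted p = 2.23e-05), against -5.44 ± 0.34 for vox, -5.45 ± 0.28 for chrd, -5.76 ± 0.27 for ved, -6.85 ± 0.30 for gsc and -6.92 ± 0.34 for vent. The call of szl was set by the filter, which it passed through its 5 hpf libraries alone, and its fold is the one given above from 2 reads in the mock 24 hpf group. Injected embryos, where 36.9% of tested genes were called lower, gave -1.51 ± 0.26 for bmp4 (edgeR, Benjamini-Hochberg adjusted p = 0.000218) and -5.62 to -7.20 for the others apart from szl and vent. There vent was at -6.48 ± 0.50. With 6, 46 and 9 reads at 24 hpf and at most 5 at the 128-cell stage, it passed the filter in injected embryos only with its 5 hpf libraries. From the 128-cell stage to 24 hpf, where 46.3% of tested genes were called higher and 39.2% lower in mock embryos, the changes were 6.75 ± 0.39 for bmp4, 5.70 ± 0.46 for chrd, 4.02 ± 0.30 for ved and 2.40 ± 0.36 for vox. The gene szl, at 0 to 2 reads per library at both of these stages, was not called in mock embryos (0.54 ± 0.87, edgeR adjusted p = 0.666). In injected embryos, where 44.7% of tested genes were called higher and 38.8% lower, szl was called at 2.61 ± 1.07 (edgeR adjusted p = 0.0386) on 1 read against 4 reads per group. This call was lost with library totals in place of TMM (edgeR adjusted p = 0.115) and without batch 3 (0.138). The call of vox in injected embryos (1.89 ± 0.61, edgeR adjusted p = 0.0123) was likewise lost with library totals (0.110) and without the filter on low counts (0.121), and its value was 3.80 without batch 1 and 1.19 without batch 2.

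The injections were compared next, at each stage and with the batch as a block. At 5 hpf, no member was called by edgeR, beside 0 of 15819 genes in all (0%), while 131 genes had an unadjusted p under 0.05 and DESeq2 called 2. These 131 genes are fewer than a threshold of 0.05 gives with no effect at all. The edgeR test was thus conservative at this stage, and a missing call does not show that an effect was absent. Of the 7 matched genes, szl was the 1 gene with an unadjusted p under 0.05, by edgeR as well as by DESeq2.

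The szl level after StCsm(EGFP) injection was lower than in mock embryos in 3 of 3 batches, with a difference of -45.3% in batch 1, -18.1% in batch 2 and -51.0% in batch 3. The fitted log2 fold change was -0.73 ± 0.22 (SE). Its unadjusted p of 0.00818 in the quasi-likelihood test was the 12th smallest of 15819, and the Benjamini-Hochberg adjusted p was 1.00, so that szl failed the correction. EGFP itself, at -0.57 ± 0.19, ranked 28th at this stage with an edgeR adjusted p of 1.00. Without batch 2, the batch with the smallest difference, szl was called at -0.93 ± 0.23 (edgeR adjusted p = 0.0584), and without batch 1 or batch 3 it was at -0.65 and -0.57 with adjusted p of 1.00. Over the other alternatives tried, which gave -0.69 to -0.76, the adjusted p stayed at 1.00. With 3 batches, an exact sign-flip test over batches cannot give a p below 0.25.

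The other 6 matched genes had smaller fitted values at 5 hpf. Relative to mock embryos, gsc was higher in 3 of 3 batches, by 10.3%, 4.44% and 0.339%, with a fitted log2 fold change of 0.067 ± 0.18 (SE). For chrd the fitted value was 0.15 ± 0.20, with a lower level in batch 1 (-15.9%) and a higher level in batches 2 and 3 (29.0% and 26.7%). For bmp4 it was -0.29 ± 0.21, with -11.9%, -39.5% and 2.35% in batches 1 to 3. The ventral repressor genes vox, vent and ved were at 0.093 ± 0.21, -0.15 ± 0.25 and 0.094 ± 0.26. Each of the 3 had a higher level in some batches and a lower level in others. In batch 2, the injected level differed from that of mock by 69.3% for ved and by -45.7% for vent. The bmp2 identifier ENSDARG00000041430 was at -0.031 ± 0.20. The adjusted p was 1.00 in edgeR for each of them.

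**Figure D2:**
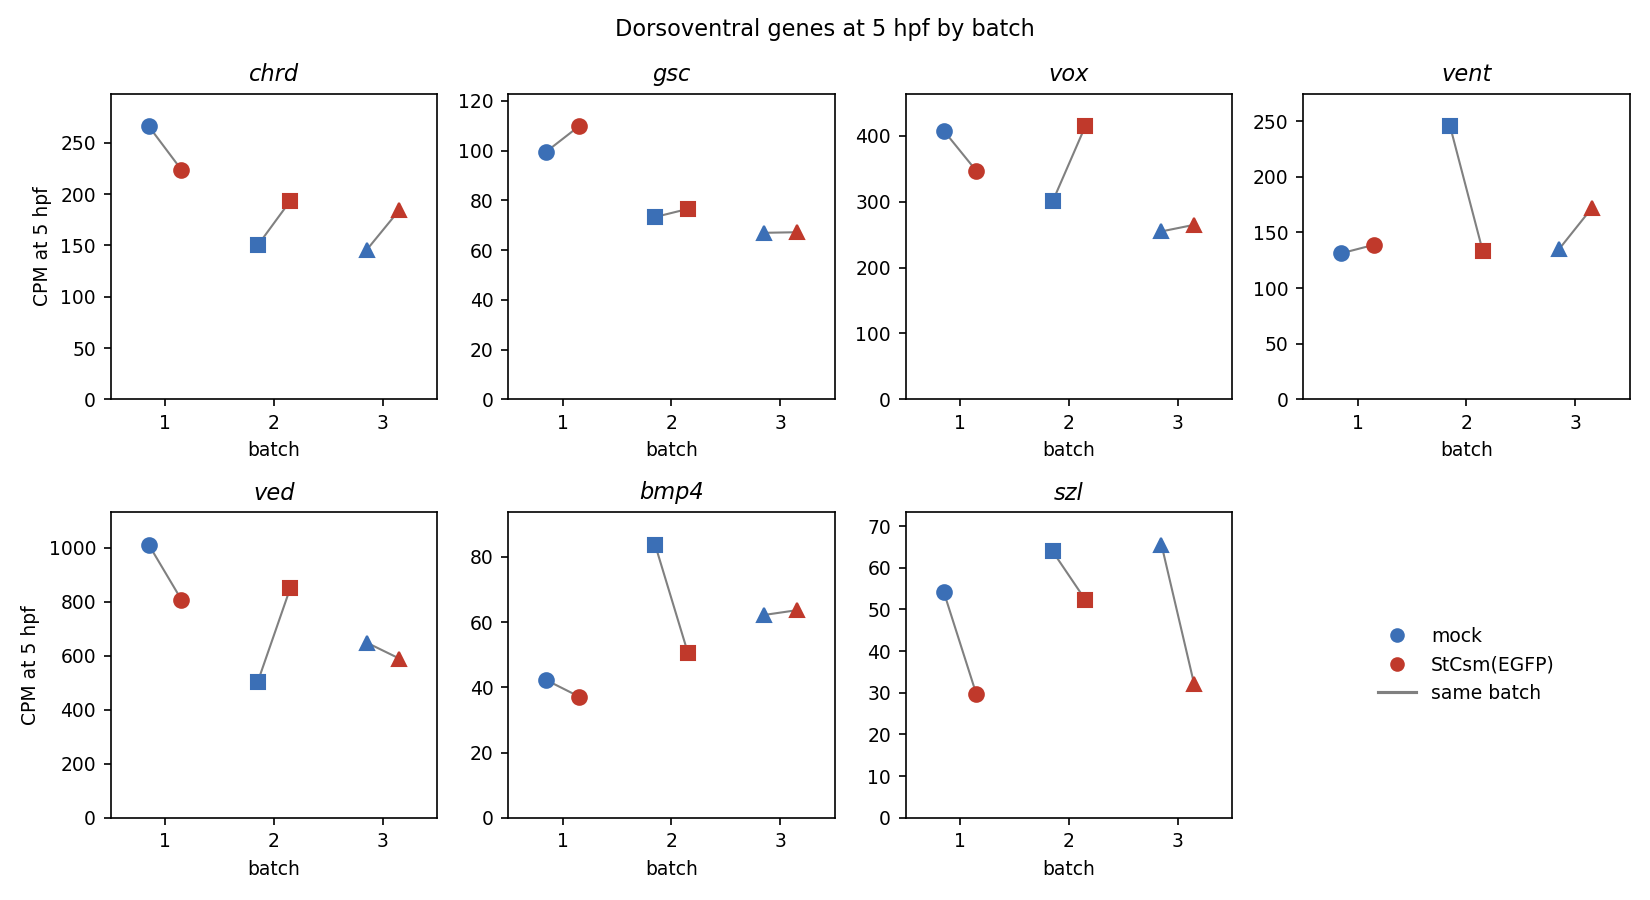
CPM at 5 hpf (linear axes from 0) for the 7 matched genes by batch, with mock and StCsm(EGFP) libraries of a batch joined by a line. The line falls in 3 of 3 batches for szl and rises in 3 of 3 for gsc. How many of all genes do either was not counted. Batch 1 lies apart from batches 2 and 3 for chrd, gsc and bmp4, and the share of all genes that do so was not counted either.

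For chrd, gsc and bmp4, named after the values had been seen, batch 1 stood apart at 5 hpf in both injections. This did not hold for every gene. Batch 2 had the highest vent level in mock (245 CPM) and the lowest in injected embryos (133 CPM). For ved, batch 2 was the lowest in mock (503 CPM) and the highest in injected embryos (851 CPM). In batch 1, chrd (224 and 266 CPM) and gsc (99.5 and 110 CPM) were above all 4 libraries of the other batches, whereas bmp4 (37.2 and 42.2 CPM) was below them. How many of all genes have batch 1 apart in this way was not counted. The mean over both injections was 245, 172 and 165 CPM for chrd in batches 1 to 3, 105, 74.9 and 67.0 CPM for gsc, and 39.7, 67.2 and 62.9 CPM for bmp4. A test of the batch term, added after these values had been seen, called 0 of the 7 genes by edgeR, beside 56 of 15819 genes (0.354%). The unadjusted p was 0.0344 for bmp4, 0.0455 for gsc and 0.0870 for chrd, and the Benjamini-Hochberg adjusted p of the 7 genes was 0.515 to 0.705.

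Ratios of reads within a library remove differences in total reads. The ratio of chrd to bmp4 reads was 6.30, 1.79 and 2.34 in mock batches 1 to 3 and 6.01, 3.82 and 2.90 after injection. Its highest values were those of batch 1. By contrast, the ratio of chrd to gsc reads stayed within 2.04 to 2.75 and that of chrd to ved reads within 0.224 to 0.313 in the 6 libraries. The ratio of chrd to szl reads was 4.91, 2.35 and 2.22 in mock and 7.55, 3.70 and 5.75 in injected embryos, higher after injection in 3 of 3 batches. A ratio within a library shows that 2 genes changed unequally and not which of them did.

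Other transcripts differed between the 5 hpf libraries too. The organizer inducer dharma was at 4.41 and 6.03 CPM in batch 1 and at 2.42 to 2.63 CPM in the other 4 libraries, and mxtx2, a gene of the yolk syncytial layer, was at 19.9 and 33.6 CPM in batch 1 and at 7.09 to 12.9 CPM in the others. Both were picked for this after their values had been seen. Of the 8 late blastula markers that include them, 4 (dharma, mxtx2, klf17 and irx7) had both batch 1 libraries above the other 4, while foxd3, for example, was at 20.5 and 23.5 CPM in batch 1 and at 18.1 to 34.1 CPM elsewhere. The share of all genes with batch 1 above the rest was not counted, so the number of markers is not read further. The sum of all 8, with none at 0, was 1053, 899 and 749 CPM in mock batches 1 to 3 and 947, 867 and 850 CPM in injected embryos. The summed CPM of the 11 oocyte transcripts, none of them at 0, was 994, 485 and 936 in mock and 1059, 749 and 484 in injected embryos. It was lowest in mock batch 2 and injected batch 3, the libraries with the highest vent level (245 and 172 CPM) and the lowest ved level (503 and 590 CPM). Between the injections, the oocyte sums overlapped, as did those of 10 early gastrula markers (1728 to 2600 in mock, 1907 to 2218 in injected embryos, none at 0). The part of these transcripts in the values of the 7 genes was not tested.

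At the 128-cell stage, 3 of the 7 matched genes passed the filter, and none of them was called, beside 5.05% of the 15498 tested genes (783 genes). EdgeR gave 0.13 ± 0.22 (log2, SE) for gsc, 0.0087 ± 0.34 for vox and -0.66 ± 0.32 for ved, and EGFP was called at -0.44 ± 0.077 (Benjamini-Hochberg adjusted p = 0.0186). DESeq2 called 592 genes and gave no adjusted p for any of the 3 members. None of the 3 had an unadjusted p under 0.05 with either tool. The ved level was lower after injection in 3 of 3 batches, with 0.759, 0.982 and 0.704 CPM in mock and 0.648, 0.545 and 0.362 CPM in injected embryos. These groups did not overlap, but how many of all genes show the same was not counted. The edgeR p was 0.0542 and the adjusted p 0.277.

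The vox values at the 128-cell stage were highest in batch 1, and the share of all genes for which this holds was not counted. They were 2.58, 0.897 and 0.828 CPM in mock and 4.26, 0.341 and 0.634 CPM in injected embryos, so that both batch 1 libraries were above the other 4. The early zygotic genes klf17 (22.4 and 26.0 CPM in batch 1, 2.45 to 9.27 CPM elsewhere) and irx7 (3.69 and 6.07 CPM in batch 1, 0.477 to 1.28 CPM elsewhere) were likewise highest in batch 1. The summed CPM of all 8 late blastula markers was 28.7 and 37.1 in batch 1 and 3.92 to 11.3 in the others. In each of these 4 libraries 1 or 2 markers were at 0, and none was at 0 in batch 1. The sums include klf17 and irx7, and klf17 alone made up most of them in batch 1. Of the same list, apela, foxd3 and vgll4l did not have both batch 1 libraries above the other 4. The 5 vent reads of this stage also came from a batch 1 library. The part of these transcripts in the vox values was not tested.

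**Figure D3:**
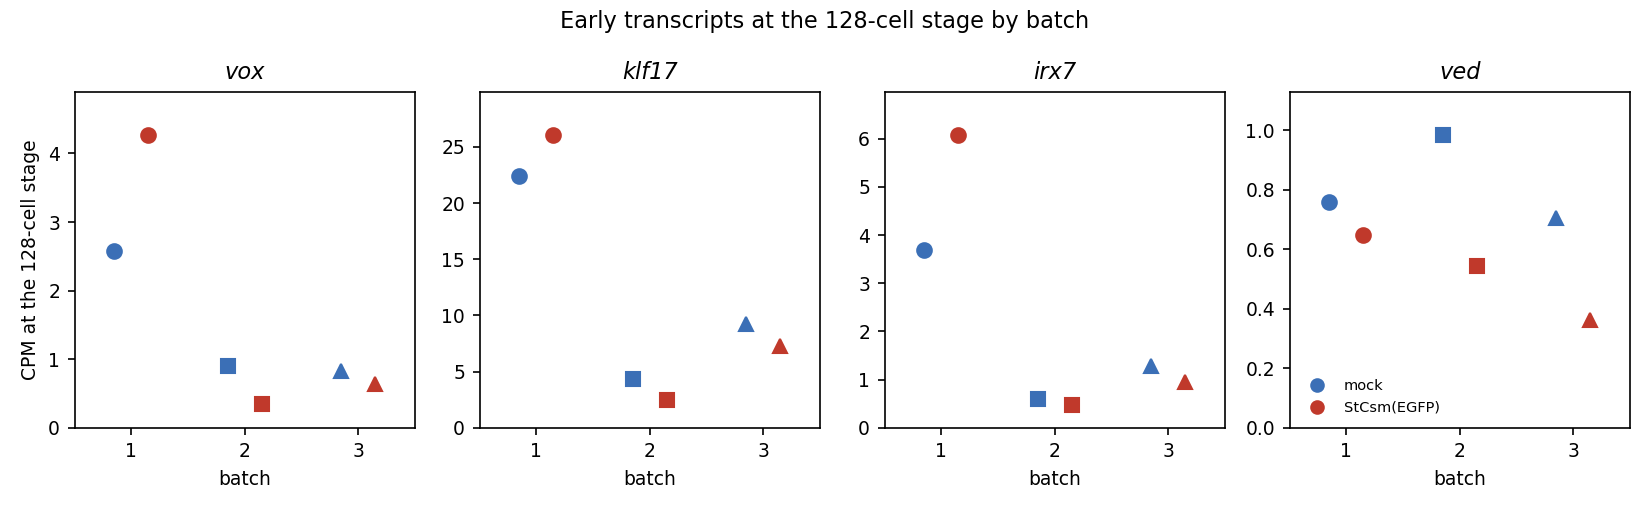
CPM at the 128-cell stage (linear axes from 0) by batch for vox and ved and for the early zygotic genes klf17 and irx7. Batch 1 libraries are the highest for vox, klf17 and irx7, and injected libraries lie below the mock library of their batch for ved. How many of all genes do either was not counted.

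Markers of later tissue also differed at this stage. The 10 muscle markers summed to 4.36 to 29.2 CPM in mock and 2.997 to 8.49 CPM in injected embryos, and 7 enveloping layer markers, mainly keratin genes, to 10.4 to 56.0 and 6.40 to 15.3 CPM. Within batches 1 to 3, the muscle sum went from 29.2 to 8.49, from 4.36 to 2.997 and from 18.9 to 3.26 CPM, and the enveloping layer sum from 56.0 to 15.3, from 10.4 to 6.40 and from 37.1 to 6.47 CPM. Both sums were thus lower after injection in 3 of 3 batches, as ved was. Among the mock batches, however, ved was highest in batch 2 (0.982 CPM), where both sums were lowest. Of the markers that passed the filter, 4 of 6 muscle and 3 of 4 enveloping layer markers were called lower after injection, beside 2.79% of all tested genes. In the other lists, 1 of 11 oocyte markers was called lower and 0 of 3 late blastula markers were called. Of the early gastrula markers, 1 of 5 was called higher, beside 351 of 15498 genes. The muscle and enveloping layer lists were singled out with these values known. The part of the muscle and enveloping layer transcripts in the ved values was not tested.

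At 24 hpf, gsc and szl were below the filter, and none of the other 5 matched genes was called by edgeR, beside 0 of 16986 genes (0%), and 819 genes had an unadjusted p below 0.05. None of the 5 did, and DESeq2 called 0 genes. The fitted log2 fold changes were -0.24 ± 0.32 (SE) for chrd, 0.11 ± 0.18 for bmp4, -0.074 ± 0.23 for vox, 0.074 ± 0.43 for vent and -0.21 ± 0.19 for ved. The values for vent rest on injected batch 2, with 46 reads. Without that batch vent was at -0.61, and chrd and bmp4 also changed sign, to 0.16 and -0.094. The Benjamini-Hochberg adjusted p in edgeR was 0.977 to 0.992 for the 5 genes.

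Whether an injection effect differed between stages was tested as an interaction. Between the 128-cell stage and 5 hpf, edgeR called none of the 7 matched genes, beside 0 of 17590 genes (0%). The unadjusted p was below 0.05 for 607 genes, and DESeq2 called 14, no member among them. The values farthest from 0 were -3.21 ± 1.74 for vent (log2, SE), which rests on the 5 reads of 1 library at the 128-cell stage, 0.78 ± 0.91 for szl, with at most 1 read in any library of that stage, and 0.75 ± 0.42 for ved. Between 5 hpf and 24 hpf, it called none of the 7, beside 0 of 19231 genes (0%). Here 500 genes had an unadjusted p below 0.05, and DESeq2 called 0. For szl the difference was 1.51 ± 0.99, with at most 2 reads in any 24 hpf library. No member had an unadjusted p under 0.05 in either interaction.

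**Figure D4:**
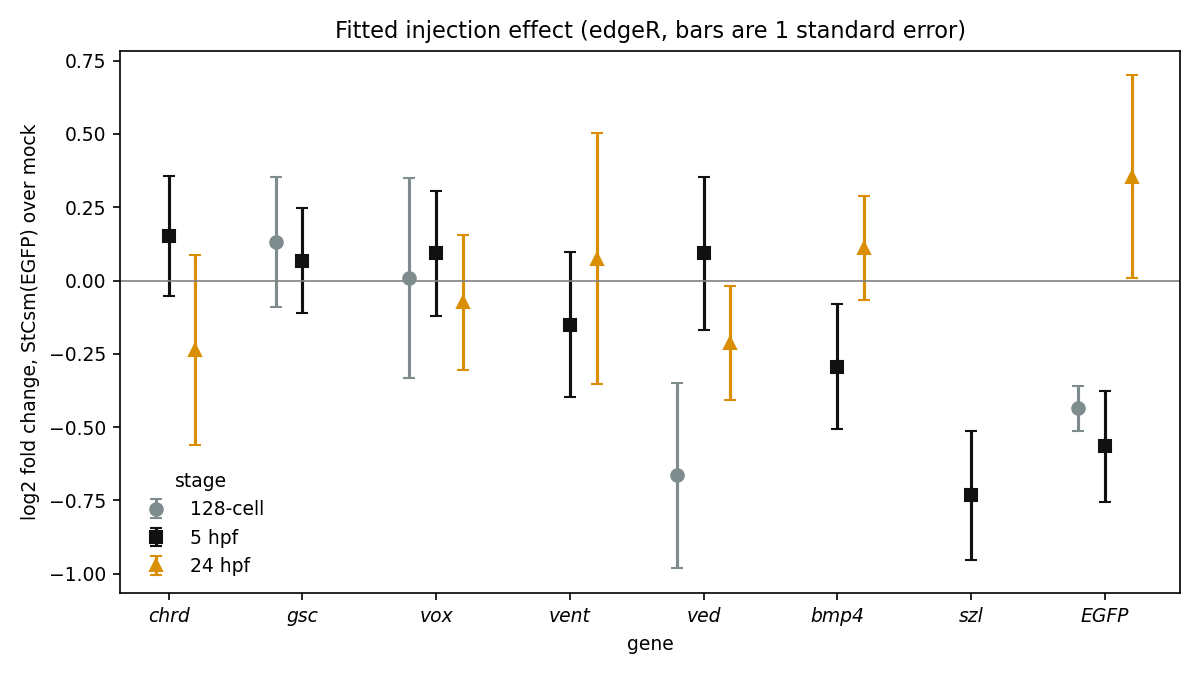
Fitted log2 fold change of StCsm(EGFP) over mock embryos for the tested genes and EGFP at each stage, with bars of 1 standard error. At 5 hpf, szl was at -0.73 ± 0.22 and EGFP at -0.57 ± 0.19, and the difference between them was not tested. The values of the other 6 genes at 5 hpf lie between -0.29 and 0.15.

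The other genes of the pathway were taken from lists of BMP ligands, receptors, Smads, secreted modulators, ventral target genes and organizer genes. Of 79 symbols, 44 matched 1 identifier, 2 matched several and 33 matched none, so the lists are partial. From the 128-cell stage to 5 hpf in mock embryos, 30 of 43 tested genes were called higher and 8 lower, beside 36.4% and 34.8% of all tested genes, with a median log2 fold change of 4.45 beside -0.00033. From 5 hpf to 24 hpf, 13 were called higher and 25 lower, beside 40.7% and 39.6%, with a median of -0.85 beside 0.016. On the libraries of a single stage, 25 of the 44 genes passed the filter at the earliest stage, 38 at the middle stage and 40 at the latest. Genes below the filter at the earliest stage could hardly have been tested without being higher at a later stage. The counts of called genes therefore describe the genes tested and no more.

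Of the 14 genes of the organizer list, 13 were called higher at 5 hpf than at the 128-cell stage and 1 lower, beside 36.4% and 34.8% of all tested genes. At 24 hpf, 10 were called lower and 0 higher than at 5 hpf, beside 39.6% and 40.7%. Of the 14, only 6 passed the filter on the 128-cell libraries alone, so the number of risers is not read further. Among the risers was foxa3, a forkhead gene of the axial mesendoderm (12.01 ± 0.38, SE), and sp5l, a target of Wnt signalling (12.18 ± 0.41). The 1 gene that fell was hwa, a maternal determinant of the organizer, at 8.05 CPM in mock embryos at the 128-cell stage, 0.915 CPM at 5 hpf and 0.103 CPM at 24 hpf (-3.11 ± 0.30 from the 128-cell stage to 5 hpf). At 24 hpf dharma had 0 reads in either injection group. The organizer genes foxa2, foxd3, otx2a and hhex were the 4 that were not called between 5 hpf and 24 hpf.

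The ligands did not share 1 course. At 24 hpf in mock embryos, 3 of 5 tested ligands were called higher than at 5 hpf and 2 lower, beside 40.7% and 39.6% of all tested genes. The filter was passed by bmp5 through its 24 hpf libraries alone and by admp through its 5 hpf libraries alone. Those calls were set by the filter, and the numbers are not read further. With bmp7a, the partner of Bmp2b in the ligand that ventral cells receive, the course was that of the members: 0.964 CPM at the 128-cell stage, 234 CPM at 5 hpf and 2.18 CPM at 24 hpf in mock embryos (-6.74 ± 0.27 from 5 hpf to 24 hpf). The organizer ligand admp went from 0.0427 to 48.4 and back to 0.0810 CPM. By contrast, bmp5, bmp6 and gdf6a were called higher at 24 hpf than at 5 hpf, bmp5 from 0 reads at 5 hpf to 20.7 CPM. The other 2 were also found at the 128-cell stage. Over the 3 stages in mock embryos, gdf6a was at 12.2, 1.46 and 15.6 CPM and bmp6 at 0.958, 0.163 and 3.71 CPM. At 24 hpf in mock embryos, bmp4 was at 16.7 ± 2.88 CPM (SD, n = 3).

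The receptors and Smads were less uniform. The receptor gene bmpr1ba fell from 46.0 to 4.16 CPM and was at 72.2 CPM at 24 hpf in mock embryos, and the receptor gene acvr1l went from 132 to 316 and then 58.6 CPM. Among the transducers, smad5 was at 123, 201 and 48.3 CPM and smad1 at 0.225, 9.81 and 50.7 CPM over the 3 stages, so that they moved in opposite directions after 5 hpf. The gene nog2, which encodes a BMP antagonist of the Noggin family, was at 0.0538 CPM at 5 hpf and 13.7 CPM at 24 hpf. Of the ventral target genes, 8 of 11 were called higher and 1 lower at 5 hpf than at the 128-cell stage, beside 36.4% and 34.8% of all tested genes. At 24 hpf, 4 of the 11 were called higher than at 5 hpf and 6 lower, beside 40.7% and 39.6%, so that neither share stood far from that of all genes. The target id1 kept rising, with 14.9, 500.5 and 721 CPM, whereas eve1 went from 0.0138 to 126 and then 3.06 CPM.

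**Figure D5:**
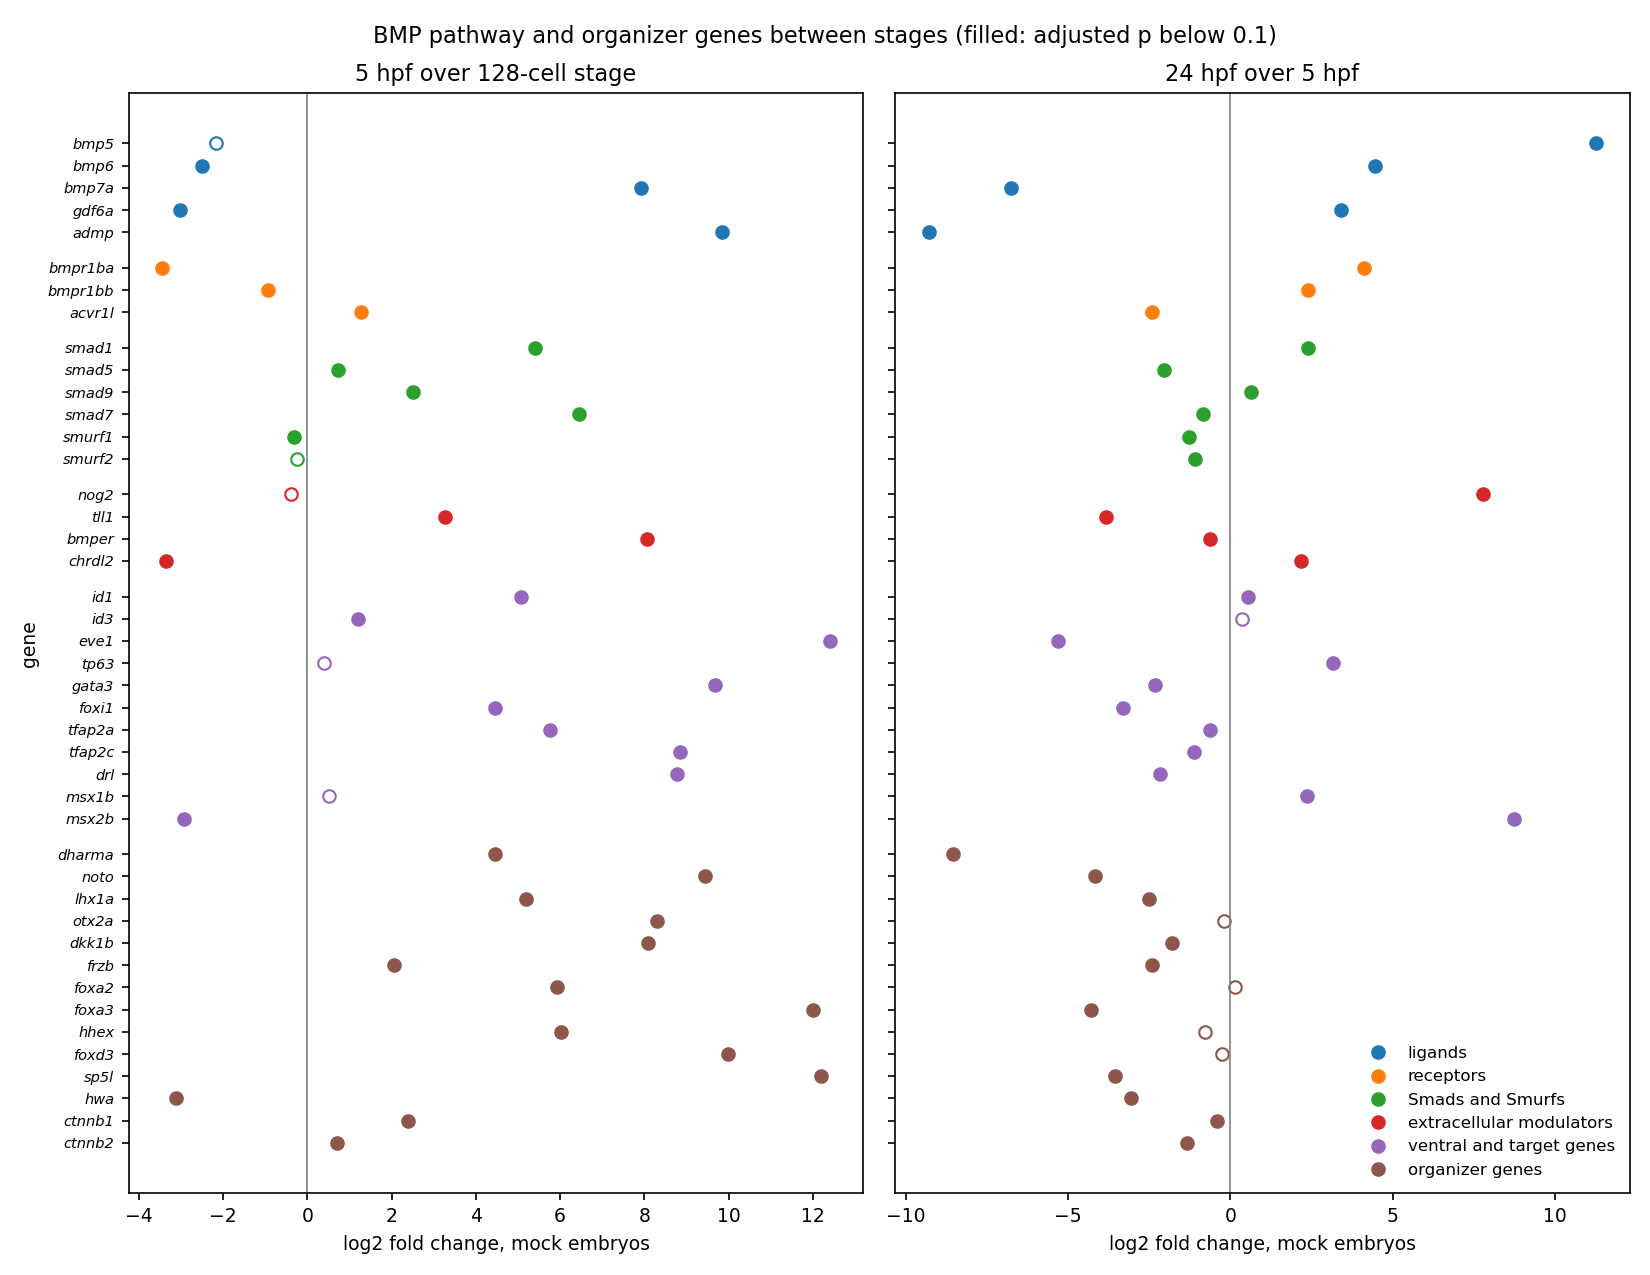
Log2 fold change between stages in mock embryos for pathway genes outside the 7, coloured by list (filled points had an adjusted p below 0.1). Of 14 organizer genes, 13 were called higher in the left panel, beside 36.4% of all tested genes. In the right panel, 10 were called lower, beside 39.6%.

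Between the injections, edgeR called 0 of 25, 0 of 38 and 0 of 40 tested pathway genes at the earliest, middle and latest stage, with 9, 0 and 2 at an unadjusted p under 0.05, and DESeq2 called 0 at each stage. Over all genes, edgeR called 5.05%, 0% and 0% at the 3 stages, and the unadjusted p was under 0.05 for 2897 of 15498, 131 of 15819 and 819 of 16986. At 5 hpf the median log2 fold change of these genes was -0.046, beside -0.012 over all tested genes. By list, that median was -0.21 over 10 ventral target genes, -0.20 over 3 ligands and -0.14 over 6 Smad list genes. It was -0.083 over 2 secreted modulators, -0.047 over 3 receptors and 0.087 over 14 organizer genes. No list held a gene that was called or had an unadjusted p under 0.05 in edgeR at this stage. The 3 other genes of the study that each member resembled most were found by Pearson's r of log2(CPM + 1) over the 18 libraries, among 20230 genes. The r values describe mainly the stages, since the libraries of a stage share their timing. They were 0.997 for chrd with kalrnb, ved and slco1d1, 0.994 to 0.996 for gsc with dram1, slc47a4 and si:ch211-191i18.4, and 0.993 to 0.996 for szl with si:dkey-238d18.15, sox32 and si:ch1073-80i24.3. For bmp4 they were 0.997 to 0.998 with evpla, efs and akap12b, for vox 0.992 to 0.993 with gata6, foxd5 and bambi, for vent 0.997 with acer1, gcnt7 and asb11, and for ved 0.997 to 0.998 with slco1d1, nr0b2 and kalrnb. The genes chrd and ved thus shared 2 of their closest genes, and ved was itself among the 3 closest to chrd. With a pseudocount of 0.1, 0 to 2 of the 3 genes named for a member stayed among its closest 3.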

How the data were processed

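For each of 18 libraries, the authors deposited raw counts per gene, with no normalization. Their processing notes name STAR 2.7.2b, HTSeq 0.11.2, UMI-tools 1.0.0, cutadapt 2.4 and the build GRCz11. Whether counts were deduplicated and the annotation release are not given in the sources used here. The 18 columns of the authors' normalized tables were not used. Reads without a feature (median 13.9%), ambiguous reads (0.911%) and reads with several alignments (9.00%) were left out of library totals. Of 32521 identifiers, 29201 were paired with a symbol. No transcript lengths or sequences were used here, so levels were not compared between genes.

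Counts were fitted with edgeR 4.0.16 (limma 3.58.1, R 4.3.3) by robust quasi-likelihood, with TMM, filterByExpr, Benjamini-Hochberg adjustment over all tested genes and a threshold of 0.1. The SE given with an edgeR log2 fold change is its absolute value over the square root of the F statistic. Such an SE can understate counting error where a group holds few reads. Injection was tested on the 6 libraries of a stage with the replicate number as a block, the study's batch. Stages were tested on the 9 libraries of an injection without the block. The interaction was tested on 12 libraries. Deviations from group means correlated at 0.38 to 0.57, 0.059 to 0.50 and 0.17 to 0.39 between libraries with the same number at the 128-cell stage, 5 and 24 hpf. Between libraries with other numbers, the correlations were -0.44 to -0.13, -0.52 to 0.43 and -0.29 to 0.13. At 5 hpf these ranges overlapped, so the correlations do not separate the pairs there. The pairing itself comes from the labels' independent injections. The scripts were tested on simulated data. Intervals for folds of pooled reads are exact at 95%. Alternatives were DESeq2 1.42.0 (likelihood ratio test), its size factors, library totals, no filter, no robust estimation, a threshold of 0.05, 1 fit of all libraries, the block added or removed, each replicate left out, and a pseudocount of 0.1 in place of 1 for correlations. Members and lists were chosen with earlier results of these data known. Named genes are the members, EGFP, per comparison up to 3 called pathway genes with the largest fold in each direction, and the 3 genes most like each member. Outside this rule, bmp6, acvr1l, smad5, id1, foxa2, otx2a, hhex, mxtx2, klf17, irx7, apela and vgll4l were chosen after their values were seen. The genes gdf6a, smad1 and foxd3 met the rule, but in comparisons other than those described here. They too were picked for these passages after their values were seen.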

Additional observations from a re-analysis of the deposited data

Results flagged for a closer look

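The gene szl was below mock embryos at the 128-cell stage (a difference of mean levels of -0.0335 CPM) and above them at 24 hpf (0.0565 CPM), with every batch on the same side at each stage. This rests on at most 4 reads per group. Batch 1 at the 128-cell stage and batch 3 at 24 hpf had 1 read in each injection. Their side comes from the scaled library totals alone. The difference between the stages was not tested.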

How the results depend on the processing

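The stage calls of the 7 genes were kept under all alternatives except those of szl and vox given above for injected embryos. At 5 hpf and 24 hpf, 0 members were called between the injections under every alternative except without batch 2 at 5 hpf, where szl was called (0 to 1 members over the replicates left out). At the 128-cell stage, 0 members were called under all alternatives, while the number of all genes called (783) was 0 with no replicate block, 6 in 1 fit of all 18 libraries, 1513 without the filter, 199 at a threshold of 0.05, and 102 to 875 with 1 replicate left out. With no replicate block and in the fit of all libraries, EGFP was not called at that stage either. Adding the replicate block to the stage comparisons changed no call of a member.

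Signs of small fitted values turned, none of them past the threshold. For vox they turned with DESeq2 at the 128-cell stage (-0.25), with library totals at 24 hpf (0.018) and in the interaction of 5 hpf and the 128-cell stage with no replicate block (-0.25). The 24 hpf value of vent was -0.066 with DESeq2, that of szl from the 128-cell stage to 24 hpf in mock embryos -0.35 with library totals, and the interaction of 24 and 5 hpf for ENSDARG00000041430 0.0099 with library totals. With 1 replicate left out, log2 fold changes between injections spanned -0.85 to 0.38 for vox at the 128-cell stage. The 5 hpf ranges were -0.069 to 0.27 for vox, -0.40 to 0.24 for vent, -0.21 to 0.32 for ved and -0.20 to 0.090 for ENSDARG00000041430. At 24 hpf they spanned -0.62 to 0.16 for chrd, -0.094 to 0.25 for bmp4, -0.31 to 0.13 for vox and -0.61 to 0.39 for vent. The interaction of 5 hpf and the 128-cell stage spanned -1.31 to 0.42 for chrd, -0.15 to 0.039 for gsc, -0.50 to 1.11 for vox, -0.61 to 0.15 for ENSDARG00000041430 and -0.34 to 0.064 for EGFP. The interaction of 24 and 5 hpf spanned -1.01 to 0.091 for chrd, -0.61 to 0.021 for gsc, -0.044 to 0.68 for bmp4, -0.85 to 0.68 for vent, -0.78 to 0.15 for ved and -0.41 to 0.15 for ENSDARG00000041430. The cause was not tested.

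The order of the genes by level per length could not be had without lengths. At fewer than 10 reads per library, as for chrd, szl, bmp4 and vent at the 128-cell stage and gsc and szl at 24 hpf, depth limits any comparison of the injections.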
